A study of Ovis aries with 8 samples.

Results

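Aquaporins, the membrane channels through which water crosses cells, were followed in the lungs of 8 late-gestation sheep fetuses, with AQP1 and AQP5 as the leading genes. A measured sequence was taken as an aquaporin when it was not a control spot and either its gene name was AQP1 or AQP5 or its description contained the word aquaporin. This rule found 7 of the 15208 non-control spots of the array, each with its own probe sequence, and they stood for 4 genes: AQP1, AQP2 and AQP5 with 2 probes each, and AQP4 with 1. AQP3, AQP8 and AQP9 were also on the array, with 5 probes in all, but their descriptions did not meet the rule, and they are given only for comparison.

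The lungs came from 4 sets of twins (Ovis aries) at about 130 days of a gestation of 147 days. In each set a fetus received 0.2 mg of aldosterone, the salt-retaining adrenal hormone, spread over 48 h, and its twin, the control, received vehicle. Infusions began 5 days after surgery, and the groups held 4 lungs each. Neither breed nor sex is given in the sources used here. From each lung 450 ng of total RNA was labelled with Cy3 and hybridised to its own 1-colour Agilent array, and the comparison asks which transcripts differ after 48 h of raised aldosterone. Levels are given as log2 of the processed signal relative to the array's 75th percentile, so that 0 is the signal of a spot brighter than 75% of the others, and -1 is 50% of that signal. A level describes its own probe across lungs. Probes differ in how well they bind, so levels of different genes are not ranked.

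Lung liquid is secreted before birth and absorbed around birth, and water follows the salt that epithelial channels and pumps move. AQP1 is known mainly from the endothelium of lung capillaries and also from red blood cells, and AQP5 from the apical membrane of the flat alveolar type I cells. AQP4 is known from the basolateral membrane of airway epithelium, while AQP2 is the vasopressin-regulated channel of the kidney collecting duct. Aldosterone acts through the mineralocorticoid receptor NR3C2, which in salt-transporting epithelia raises sodium entry through the epithelial sodium channel and the sodium pump.

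Between 76.49% and 85.41% of the spots of an array were well above background, and the arrays correlated with each other at 0.966 to 0.989. All 8 arrays lay on 1 slide, with replicates 1 and 2 of both groups in its first row and replicates 3 and 4 in its second, so each row held 2 replicate numbers and both groups. The arrays of a same-numbered pair were also neighbours within their row. A likeness of same-numbered lungs can therefore not be told apart from one of slide position. The labelled tissue was checked against surfactant genes: all 4 measured markers of alveolar type II cells, SFTPA1, SFTPB, SFTPC and SFTPD, were well above background on every array. In these pieces of whole lung, fewer cells of a type and less RNA per cell cannot be told apart. With 4 lungs a group, precision is limited by their number.

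The probe sequences show what each aquaporin reading measures, and that the paired probes of a gene are not separate targets. Each pair of AQP1, AQP5 and AQP2 shares 59 of its 60 bases, the windows being moved by 1 base, and the capital letter marks the base that the partner lacks. They are printed 5′ to 3′ as in the array's design, the brighter probe of each gene first.
AQP1, brighter probe: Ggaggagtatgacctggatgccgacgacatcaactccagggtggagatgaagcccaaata
AQP1, second probe: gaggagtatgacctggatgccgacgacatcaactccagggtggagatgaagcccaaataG
AQP5, brighter probe: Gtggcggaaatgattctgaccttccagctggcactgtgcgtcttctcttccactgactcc
AQP5, second probe: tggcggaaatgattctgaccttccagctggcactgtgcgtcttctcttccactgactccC
AQP2, brighter probe: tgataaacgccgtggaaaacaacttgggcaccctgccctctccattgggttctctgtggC
AQP2, second probe: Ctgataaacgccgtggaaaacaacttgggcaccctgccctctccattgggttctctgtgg
AQP4: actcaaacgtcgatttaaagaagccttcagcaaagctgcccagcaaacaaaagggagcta
The AQP1 windows run from base 762 to 821 and from 763 to 822 of the transcript record that the array was designed on, and the later one ends on a stop codon in its only open reading frame. The AQP1 probes therefore read the 3′ end of the coding sequence. The AQP5 windows begin at bases 408 and 409, the AQP2 windows at 445 and 446, and the AQP4 window at 788 of their own records. The longest run of bases that any of these 7 probes shares with a probe of another gene, on either strand, is 13 or 14. The genome position of the windows is not given here, since the scanner files list none. In the RefSeq gene order of the sheep assembly ARS-UI_Ramb_v3.0, AQP5 lies between AQP6 and AQP2.

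All 7 aquaporin probes were well above background on all 8 arrays, without saturation or outlier flags, so all of them entered the test. The paired probes lie far apart on the array and give a measure of the reading error. Within an array the AQP1 probes differed by at most 0.15, the AQP5 probes by 0.14 and the AQP2 probes by 0.10 on the log2 scale. The error of a single reading derived from these gaps was an SD of 0.03 for AQP1 and 0.05 for AQP5. Among lungs of a group, by contrast, the SD was 0.20 to 0.25 for AQP1 and 0.49 to 0.53 for AQP5, so most of the spread given below lies between lungs or arrays and not between spots.

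AQP1 was the aquaporin with the clearest difference: its brighter probe was 1.47-fold higher on average after aldosterone, with 3 of the 4 same-numbered pairs clearly apart and replicate 1 level, and the difference did not pass the test across all probes. In the control lungs the brighter AQP1 probe stood at -1.005, -1.49, -1.23 and -1.55 in replicates 1 to 4. After aldosterone it stood at -0.992, -0.53, -0.67 and -0.86. The groups did not overlap, although the lowest aldosterone lung lay only 0.01 above the highest control lung, and both were replicate 1. As shares of the 75th percentile the control lungs lay between 34.2% and 49.8% and the aldosterone lungs between 50.3% and 69.1%.

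The mean AQP1 level was -1.32 ± 0.25 (SD, n = 4) in control and -0.76 ± 0.20 (SD, n = 4) in aldosterone lungs, a log2 difference of 0.55 ± 0.17 (SE), with a 95% interval of 1.12-fold to 1.92-fold. limma gave an unadjusted p of 0.0103 and a Benjamini-Hochberg adjusted p of 1 over the 12168 probes tested. An exact two-sided permutation test of this probe, which ignores the pairing, gave p = 0.0286, the smallest that 4 lungs against 4 allow. The exact sign-flip test over the 4 same-numbered pairs gave p = 0.125, the smallest it can give. The same-numbered pairs differed by 0.01, 0.95, 0.56 and 0.69, so that replicates 2, 3 and 4 carried the difference, while that of replicate 1 was below the 0.03 error of a single reading. With the replicate number as a block, the SE was again 0.17, the unadjusted p 0.0185 and the adjusted p 0.878.

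The second AQP1 probe gave 0.53 ± 0.17 (SE) with a limma p of 0.0119 and an adjusted p of 1. Its replicate 1 pair differed by -0.02 and its other pairs by 0.94, 0.52 and 0.69, so it was higher in 3 of 4 pairs. The groups overlapped (exact permutation p = 0.0571), and the exact sign-flip test over the pairs gave p = 0.25. In the first row of the slide the brighter probe's difference was 0.48 and in the second row 0.63. Because the paired probes share a target, their agreement repeats 1 measurement and adds no lung.

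**Figure D1:**
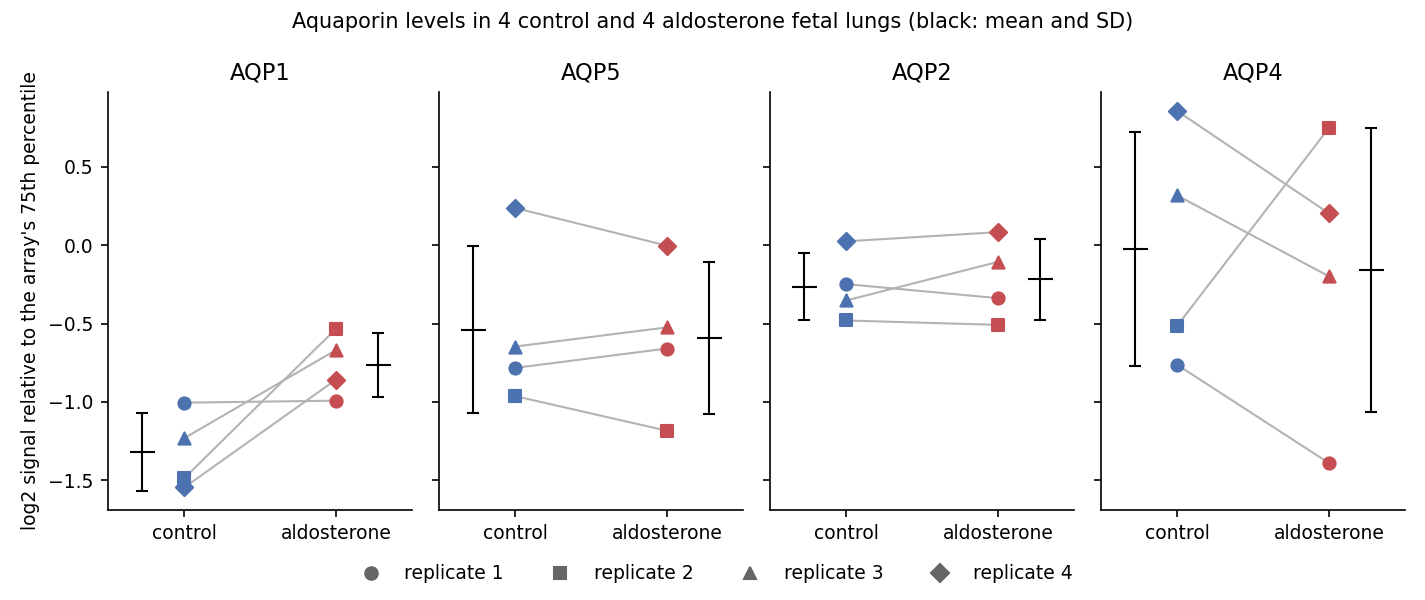
Levels of AQP1, AQP5, AQP2 and AQP4 (brighter probe of each) in the 4 control lungs in blue and the 4 aldosterone lungs in red, as log2 signal relative to the array's 75th percentile. Symbols show the replicate number, grey lines join same-numbered lungs, and black bars give the mean and SD. The AQP1 lines of replicates 2 to 4 slope upward by 0.56 to 0.95 and that of replicate 1 is nearly flat, while the AQP5 lines stay within 0.24 of level.

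The AQP1 difference was read against those of all probes tested. At an adjusted p under 0.05 limma passed 0 of 12168 (0%), and at an unadjusted p under 0.05 it passed 228. The 228 are fewer than a threshold of 0.05 passes on average when no probe differs. The rank of AQP1 and the shares that follow therefore add no evidence beyond its own p. Of the 7 aquaporin probes, 2 were higher after aldosterone at an unadjusted p under 0.05, both of them AQP1, against 1.27% of all probes, and with the replicate block the same 2 against 2.82%. AQP1's brighter probe was 1 of 7 with all aldosterone lungs above all controls, which held for 0.856% of probes, and 1 of 7 higher in all 4 pairs, which held for 7.68%. By unadjusted p it ranked 36 of 12168, and 3.29% of probes had a larger difference in either direction. The median difference over all probes was 0.01 and 51.5% of them were higher after aldosterone, a balance that the scaling of each array to its own 75th percentile largely sets. AQP1's difference is therefore one relative to the rest of the array.

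AQP5 showed no difference that exceeded the spread between lungs. In the control lungs its brighter probe stood at -0.78, -0.96, -0.65 and 0.24, and in the aldosterone lungs at -0.66, -1.18, -0.52 and -0.0028, in replicates 1 to 4. The groups overlapped over nearly their whole range, and the highest lung of each group was replicate 4 and the lowest replicate 2. The means were -0.54 ± 0.53 (SD, n = 4) in control and -0.59 ± 0.49 (SD, n = 4) after aldosterone. The log2 difference was -0.05 ± 0.32 (SE; limma p = 0.868, adjusted p = 1; exact permutation p = 0.914).

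The 95% interval of the AQP5 difference ran from 0.587-fold to 1.58-fold without the block, which holds a change as large as AQP1's. The same-numbered AQP5 pairs differed by 0.12, -0.22, 0.12 and -0.24, with 2 pairs each way. With the replicate block its SE fell to 0.13 and the interval to -0.36 to 0.25 on the log2 scale. That interval does not hold AQP1's 0.55, but it overlaps AQP1's own interval in the same fit, 0.13 to 0.98. The sign of the small AQP5 difference rested on single lungs. The difference became 0.14 without aldosterone replicate 2, 0.20 without control replicate 4 and 0.20 with array weights. The second AQP5 probe gave -0.05 ± 0.28 (SE).

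AQP5 varied between replicate numbers far more than between same-numbered lungs. Twin set and slide position cannot be told apart as the source, since same-numbered arrays were neighbours on the slide. Over the 8 lungs its level ranged over 1.42 on the log2 scale, while no same-numbered pair was more than 0.24 apart. Its mean was -0.90 over the 4 arrays of the first slide row (-1.18 to -0.66) and -0.23 over those of the second (-0.65 to 0.24). AQP1 had row means of -1.005 and -1.08 and showed the opposite arrangement, with a range of 1.01 and a largest pair gap of 0.95. For AQP5 the numbers also stood apart within each row, with replicate 1 above replicate 2 and replicate 4 above replicate 3 in both groups. The SE of the AQP5 difference was 0.23 with the slide row as a block and 0.13 with the replicate number, against 0.32 with neither. In spread within groups, 83.3% of probes were less variable than AQP5 and 32.1% were less variable than AQP1.

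Whether AQP1 and AQP5 responded differently was tested directly, on the AQP1 level minus the AQP5 level within each array, a quantity free of scaling between arrays. The control lungs lay between -1.78 and -0.22 and the aldosterone lungs between -0.86 and 0.65, so the groups overlapped. Same-numbered lungs differed by -0.11, 1.18, 0.44 and 0.93. The mean difference of the responses was 0.61, above 0 in 3 of 4 pairs. The exact two-sided permutation test over the 8 lungs gave p = 0.314, and the exact sign-flip test over the 4 pairs p = 0.25, where 0.125 is the smallest it can give. A difference between the responses of AQP1 and AQP5 was therefore not shown at this number of lungs.

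AQP2 and AQP4 had differences well inside their errors. The brighter AQP2 probe stood at -0.25, -0.48, -0.35 and 0.02 in control and at -0.34, -0.51, -0.11 and 0.08 in aldosterone lungs. Its groups overlapped, and its difference of 0.05 ± 0.18 (SE; limma adjusted p = 1) had a 95% interval of -0.35 to 0.45, with a sign that turned in the authors' deposited values (-0.01), within the first slide row (-0.06) and without control replicate 2 (-0.03) or aldosterone replicate 4 (-0.05). The second AQP2 probe also gave 0.05 ± 0.18 (SE).

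AQP4 was the most variable aquaporin of the rule, and 95.3% of all probes varied less within groups. Its level was -0.76, -0.51, 0.32 and 0.86 in the control lungs and -1.39, 0.75, -0.20 and 0.20 in the aldosterone lungs. The aldosterone lung was the higher one in replicate 2, by 1.26, and the lower one in replicates 1, 3 and 4, with differences of -0.63, -0.52 and -0.65. The mean difference was -0.13 ± 0.50 (SE; limma adjusted p = 1), with a 95% interval of -1.26 to 0.99, too wide to show a change of the size seen for AQP1. Its sign turned to 0.28 without aldosterone replicate 1 and to 0.16 without control replicate 4.

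**Figure D2:**
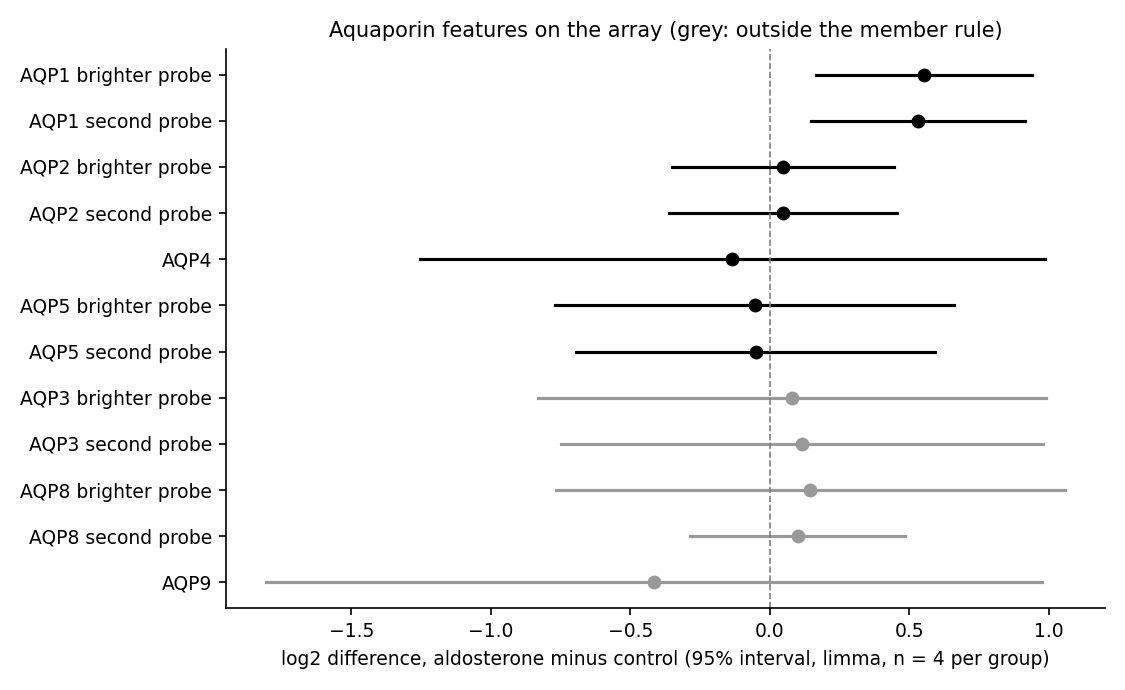
Log2 difference between aldosterone and control lungs for each aquaporin probe, with limma's 95% interval (n = 4 per group). Black marks the 7 probes found by the rule and grey the 5 probes of AQP3, AQP8 and AQP9. The intervals of the 2 AQP1 probes alone lie above 0, before adjustment for the number of probes tested, while the AQP4 interval spans -1.26 to 0.99.

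The 3 aquaporins outside the rule did not differ beyond their errors either. AQP3, a channel that also passes glycerol and is known from basal cells of the airway, differed by 0.08 ± 0.40 (SE), and its brighter probe ranged from -3.44 to -2.34 in control and from -3.39 to -1.72 in aldosterone lungs. AQP8 gave 0.15 ± 0.40 (SE) on its brighter probe and 0.10 ± 0.17 (SE) on its second, which share at most 7 bases and differed by up to 0.82 within an array. AQP9, another glycerol channel, gave -0.41 ± 0.61 (SE), with a lowest aldosterone lung of -5.34 in replicate 1. Counting all 7 aquaporin genes, the mean after aldosterone was above that of the controls for 4 and below it for 3, or 3 and 4 in the authors' deposited values, where AQP2 changed side.

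The other genes of lung liquid transport were read from a list of 45 channels, pumps, transporters and regulators. Of these, 15 were found by name on the array and 11 were bright enough to test. Since 13425 of the 15008 probes stayed unnamed, a gene not found by name may still be on the array. None of the 11 passed, at an adjusted p under 0.05 or at an unadjusted p under 0.05 in limma, and the median difference was -0.07 against 0.01 over all probes. The means of 3 were higher and of 8 lower. All 3 subunits of the epithelial sodium channel had higher means, although after normexp correction with quantile normalization only 2 of 3 did, and SCNN1G, at 0.22 ± 0.28 (SE), passed the background limit on just 2 of the 4 arrays in either group. All 6 regulators had lower means, in each scaling tried.

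Among these 11 genes and the aquaporins, AQP1 had the largest difference relative to its error. The glucocorticoid receptor NR3C1 followed at -0.32 ± 0.29 (SE), then NHERF1, a scaffold of apical transporters, at -0.15 ± 0.17 (SE), and the aldosterone receptor NR3C2 at -0.19 ± 0.23 (SE), each lower in 3 of 4 pairs. CFTR, a chloride channel, gave -0.41 ± 0.54 (SE), and SCNN1A, the alpha subunit of the sodium channel, 0.11 ± 0.21 (SE). All of these had an adjusted p of 1.

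**Figure D3:**
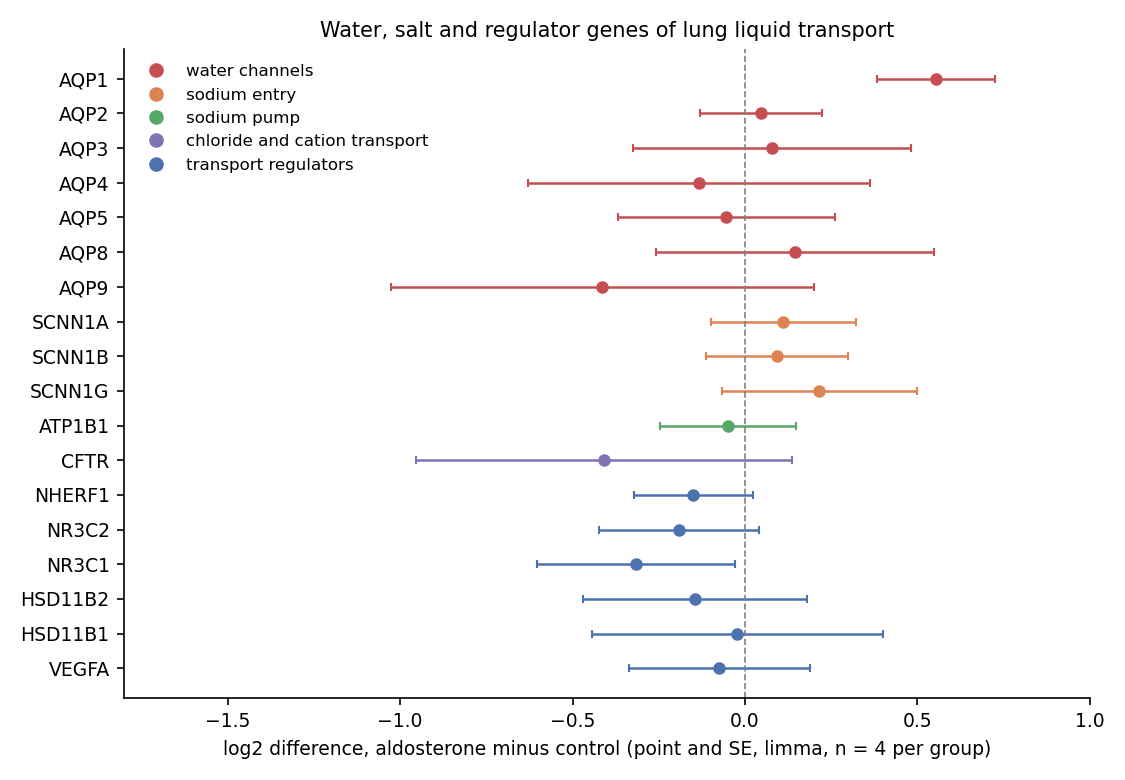
Log2 difference between aldosterone and control lungs (point and limma SE, n = 4 per group) for the 7 aquaporin genes and the 11 other tested genes of lung liquid transport, coloured by role. AQP1 lies at 0.55 and the next highest, SCNN1G, at 0.22, and the error bars of most other genes cross 0. The sodium entry genes lie right of 0, which held for 2 of 3 after normexp correction with quantile normalization, and AQP2's small positive value is negative in the authors' deposited values.

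Markers of the cells known to carry these channels were set beside them. They were found by name, and most probes stayed unnamed, so a marker not counted may still be on the array. Of 13 endothelial markers 5 were found by name and all 5 were tested, with 4 higher and 1 lower mean and a median difference of 0.15. The 3 brightest were PECAM1 at 0.07 ± 0.17, TIE1 at 0.15 ± 0.28 and KDR at 0.18 ± 0.22 (SE). The remaining 2, added after their values were seen, were FLT1, a VEGF receptor, at -0.23 ± 0.26 and TEK, the angiopoietin receptor, at 0.35 ± 0.26 (SE). The TEK pairs differed by -0.07, 0.22, 0.67 and 0.59. The list's median was 0.04 without aldosterone replicate 1, and 0.08 and 0.20 within the first and second slide rows. The summed endothelial level ranged from 3.23 to 3.57 in control and from 3.14 to 3.75 in aldosterone lungs, and the groups overlapped. The sums here and below add signals before the log is taken, so the brightest genes of a list weigh most. The endothelial sum mainly follows PECAM1. None of the 5 had a limma p under 0.05.

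For red blood cells, the other known source of AQP1, 3 of 14 markers were measured and all 3 had lower means after aldosterone, with a median of -0.72. They were HBB at -0.40 ± 0.69, the globin chaperone AHSP at -0.72 ± 0.99 and CA1 at -0.76 ± 0.86 (SE), with summed levels of 4.56 to 7.19 in control and 4.59 to 6.88 in aldosterone lungs. Fetal beta globin, found by its description and added after its value was seen, gave -0.04 ± 0.77 (SE), higher in 2 of 4 pairs. The median of the 3 listed markers was -0.07 without control replicate 2, -0.18 and -0.20 without aldosterone replicate 4 and 1, -0.31 without control replicate 3, and -1.09 without aldosterone replicate 2. No direction of the red cell markers is read from these values.

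For the type I cells known to carry AQP5, 3 of 10 markers were measured, CAV1 at -0.09 ± 0.17, ICAM1 at -0.45 ± 0.52 and IGFBP2 at 0.69 ± 0.42 (SE). Their median was -0.09, with a sign that turned to 0.17 without control replicate 4, 0.03 without aldosterone replicate 2, 0.003 without control replicate 1, and 0.13 and 0.02 within the first and second slide rows. Their summed level was 2.79 to 3.88 in control and 2.96 to 3.30 in aldosterone lungs. The 4 type II markers had a median of -0.04, which turned to 0.13 without aldosterone replicate 1 and 0.04 without control replicate 4, and summed levels of 8.83 to 9.30 against 8.54 to 9.23, with SFTPC at 0.03 ± 0.19, SFTPA1 at -0.25 ± 0.23 and SFTPB at -0.10 ± 0.25 (SE). The 3 measured markers of airway secretory cells, SCGB3A2 at -1.14 ± 0.66, LTF at -0.53 ± 0.41 and PIGR at 0.79 ± 0.64 (SE), had a median of -0.53 (-0.24 without aldosterone replicate 3, -0.27 without control replicate 2 and -0.80 without control replicate 4) and summed levels of 4.30 to 6.12 against 3.11 to 5.87. No marker named here had a limma p under 0.05, and of 7 mesothelium and pericyte markers the 1 found by name was too dim to test. In the type I list the median is the value of 1 gene, CAV1, and in the airway list that of LTF. The medians and sums describe these markers and do not measure the share of a cell type. Whether the share of any of these cell types had a part in the AQP1 result was not tested.

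The named genes whose levels over the 8 arrays ran closest to each aquaporin were found by the root mean square distance between centred log2 levels, over 782 genes. Closest to AQP1 were the glucose transporter SLC2A3 at a distance of 0.16, the arterial connexin GJA4 at 0.22, the lysosomal protease CTSB at 0.22, the mitotic kinase AURKA at 0.22 and IKKBETA, as the array names it, at 0.24. The median distance of a gene from AQP1 was 0.46. Their differences after aldosterone were 0.31 ± 0.16, 0.42 ± 0.17, 0.33 ± 0.18, 0.56 ± 0.20 and 0.23 ± 0.15 (SE), all with higher means, as follows from their closeness to AQP1.

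Closest to AQP5 were the cytokine IL15 at 0.14, the hypoxia-inducible factor EPAS1 at 0.14, ATXN2L at 0.16, the autophagy adaptor SQSTM1 at 0.19 and the sterol reductase TM7SF2 at 0.20, where the median gene lay at 0.50. These 5 differed by -0.12 to 0.09 between groups. None of the 5 genes nearest AQP1 was among the 5 nearest AQP5. Sets of 5 out of 782 genes seldom share a gene, so nothing is read from this. The distances describe these 8 arrays, which share a slide and its row order.

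**Figure D4:**
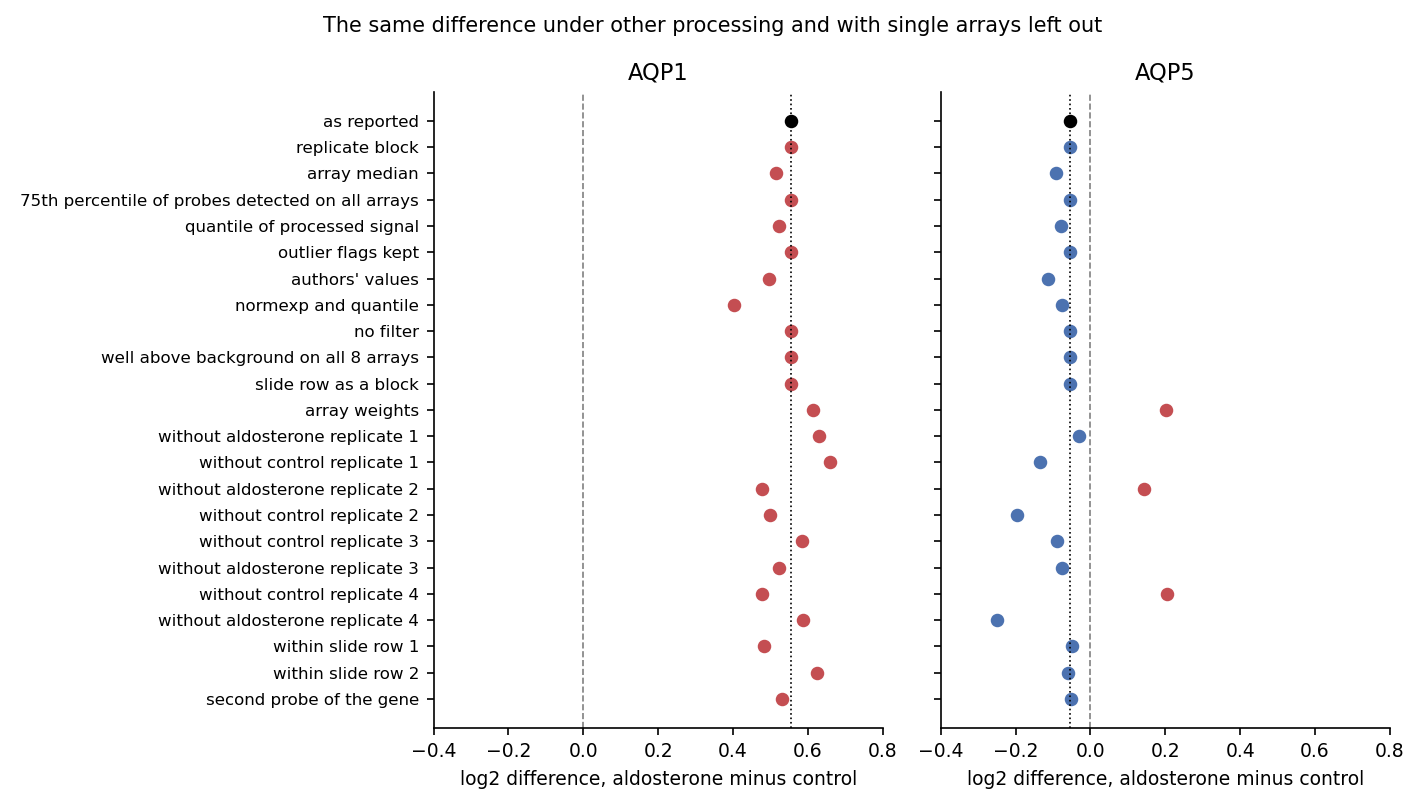
The log2 difference of AQP1 and AQP5 (brighter probe) between aldosterone and control lungs as reported (black) and under each alternative, with red for values above 0 and blue for values below 0. AQP1 lies between 0.40 and 0.66 in all 22 alternatives, and AQP5 lies between -0.25 and 0.20 and is above 0 in 3 of them.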

How the data were processed

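RNA of 4 aldosterone and 4 control fetal lungs was measured on 8 1-colour arrays. The deposited scanner files hold spot intensity, made with Agilent Feature Extraction 10.1.1.1 per the file headers, with background subtracted and spatial trends removed within the array. A table deposited by the authors gives log2 values of 12762 spots. These matched the log2 processed intensity less 1 constant per array (median 0 in each column).

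Here log2 processed intensity less the array's 75th percentile was used. Outlier-flagged values (74) were left out, spots of a probe averaged to 15008 probes, and the 12168 well above background on at least 4 arrays tested with limma 3.58.1 in R 4.3.3, by group alone, with two-sided p-values adjusted by Benjamini-Hochberg across them and a threshold of 0.05. Single values also had exact permutation tests over lungs. AQP1 and its difference from AQP5 had exact sign-flip tests over same-numbered pairs as well. The fit and tests were checked on simulated data. Genes were named through the RefSeq table of ARS-UI_Ramb_v3.0, used for names and gene order: 727 probes matched by accession, 125 by gene ID, 484 by symbol, 20 by synonym and 12 by an older name, 214 kept the file's name, and 13425 stayed unnamed. Of several probes of a gene the brighter one leads.

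After removing group means, same-numbered lungs correlated at 0.446, 0.275, 0.28 and 0.538 over 12146 probes, and different-numbered ones at -0.449 to 0.204. The numbers were taken as pairs on this ground. Same-numbered arrays were also slide neighbours, so the correlations and the replicate block cannot separate twin set from slide position. The labels name the twin sets without tying numbers to them. The members and lists were chosen with earlier results of these data known, and 1 gene of the transport list is not reported here. Named were all aquaporin probes of the rule, the 8 transport genes with the largest moderated t, up to 3 brightest genes of each marker list and the 5 genes nearest AQP1 and AQP5. Alternatives covered pairing, scaling, background correction, filters, flags, slide row, array weights, the authors' values, the other probe and leaving out each array.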

Additional observations from a re-analysis of the deposited data

Results flagged for a closer look

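Of 104 groups of 4 lungs looked at, over the genes named here, 7 held a lung whose gap to its nearest neighbour took a larger part of the group's range than Dixon's 95% limit for 4 samples allows. Chance gives about 1 in 20 groups, and these genes share arrays. Among the aquaporins the only one was the second AQP3 probe, where control replicate 1 lay below its group (-3.44 against -2.63 to -2.48, a ratio of 0.848). For the other genes, ATP1B1 was low in aldosterone replicate 1 (2.53 against 3.13 to 3.21, ratio 0.880), and so was SFTPC (7.97 against 8.57 to 8.67, ratio 0.861). CTSB was high in aldosterone replicate 2 (1.85 against 1.14 to 1.23, ratio 0.877). In control replicate 4, ICAM1 was high (3.04 against 0.43 to 0.85, ratio 0.840), SFTPD was high (3.77 against 2.86 to 2.98, ratio 0.867) and TIE1 was low (-2.03 against -0.99 to -0.85, ratio 0.880). No group of AQP1, AQP5, AQP2 or AQP4 held such a lung.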

How the results depend on the processing

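AQP1 stayed above 0 in all 22 alternatives (0.40 to 0.66), and ran from 0.48 to 0.66 with single arrays left out. Its unadjusted limma p was 0.0026 to 0.0331 and its adjusted p 0.46 to 1. The lowest of both came with array weights, and the differences within a slide row had no p. AQP5 ran from -0.25 to 0.20 with single arrays left out and turned to 0.20 with array weights. The AQP1 response minus the AQP5 response stayed above 0 (0.27 to 0.84), with exact-test p of 0.114 to 0.629 and none within a slide row. In the authors' values the AQP2 probes turned to -0.0123 and -0.0112, and within slide row 1 to -0.0590 and -0.0417. With single arrays left out they ran from -0.0535 to 0.14 and from -0.0762 to 0.15. AQP4 turned to 0.071 with array weights and 0.32 within slide row 1, and ran from -0.44 to 0.28 with single arrays left out. With array weights the AQP3 probes turned to -0.22 and -0.17 and AQP9 to 0.00025. Within slide row 2 the AQP3 probes turned to -0.23 and -0.18, and within row 1 the AQP8 probes to -0.0256 and -0.0979. With single arrays left out the AQP3 probes ran from -0.23 to 0.33 and from -0.18 to 0.36, the brighter AQP8 probe from -0.18 to 0.35 and AQP9 from -0.85 to 0.22. The cause of these turns was not tested.

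The count of probes at an unadjusted p under 0.05, 228 as reported, was 539 with the replicate block, 343 with slide row as a block and 1282 with array weights. Leaving out single arrays gave 143 (control replicate 3) to 422 (aldosterone replicate 1), with 146 without control replicate 2, 383 without control replicate 1 and 387 without control replicate 4. No probe passed an adjusted p of 0.05 in any of the 19 alternatives. With the pairing as a block the median SE over probes fell from 0.201 to 0.144, AQP1 kept 0.55 ± 0.17 and no call on a single aquaporin changed. With single arrays left out the marker medians ran from 0.04 to 0.22 for endothelium, -1.09 to -0.07 for red blood cells, -0.17 to 0.17 for type I, -0.16 to 0.13 for type II and -0.80 to -0.24 for airway secretory cells.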
